A study of Mus musculus with 8 samples.

Results

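The 9 genes described here are germline and oocyte genes that were read out in mouse embryonic stem (mES) cells with and without an inhibitor of ribosomal RNA synthesis: Ooep, Khdc3, Nanos3, Dazl, Ddx4, Mael, Taf7l, Hormad1 and Sycp3. They are 9 of the 54146 genes in the count tables. They were picked by symbol after their values in these data were known, so the comparisons between the libraries and between cells with and without Zscan4 are descriptions and carry no test. The cells were ES cells derived from the inner cell mass of the blastocyst, of the E14 wild-type line by the study's methods, grown on mouse embryonic fibroblast feeders in LIF/2i medium for 2 days. The control cells were untreated, and the other cells received CX-5461, a small molecule that blocks RNA polymerase I, at a dose and for a time that the labels and methods do not give for the single-cell libraries. Single-cell 3′ RNA-seq was made on the 10x Genomics system, and a unique molecular identifier (UMI) count stands for 1 captured transcript. The labels list 4 samples per condition, but the barcodes of a condition lie in 1 table with running numbers as names, so neither the sample of a cell nor barcodes shared between the tables could be determined. Each condition was therefore 1 library, a difference between conditions cannot be told apart from a difference between 2 libraries, and all intervals below are exact 95% intervals that cover counting error only.

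Germ cells use a set of genes that most other cells keep silent. Dazl, Ddx4 and Nanos3 encode RNA-binding proteins of the early germ line, Mael acts in the piRNA pathway that silences transposons, Hormad1 and Sycp3 build the chromosome axis of meiosis, Taf7l is a germ-cell form of a subunit of the general transcription factor TFIID, and Ooep and Khdc3 belong to the subcortical maternal complex of the oocyte and early embryo. In ES cells many germline promoters are held down by DNA methylation and by a Polycomb complex that contains MGA, MAX and E2F6. The pair of MGA and MAX recognises the E-box, and E2F6 recognises the E2F motif. The 2C-like state, marked by the Zscan4 family, is a rare state of ES cell cultures in which transcripts of the 2-cell embryo appear.

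In the RefSeq promoters of GRCm38.p6, which run from 250 bases before to 50 bases after the start site, the E-box CACGTG was found for 5 of the 9 members, Ddx4, Mael, Taf7l, Hormad1 and Sycp3. It was found in 7.15% of all 32851 promoters, on either strand. The E2F motif TCCCGC, or its reverse complement, was found for Ddx4, Mael, Hormad1 and Sycp3 and in 19.98% of all promoters, and 1.99% of all promoters held both. Among promoters of the genes tested between the libraries, the E-box was found in 10.5% of those within 2-fold and 9.37% of those at least 2-fold higher, the E2F motif in 36.4% and 32.1%, and both in 3.95% and 3.09%. Counted by promoter, 6 of the members' 10 held the E-box, 5 the E2F motif and 5 both. Hormad1 has 2 of the 10, with starts at chr3:95559677 and 95559679, so the same motifs are counted in both. In 53 promoters of the other germ-cell genes described below, the shares were 26.4%, 37.7% and 7.55%. Hormad1 and Sycp3 each had 2 E-boxes, which began 57 and 20 bases before the start site in Hormad1 and 64 and 43 bases before it in Sycp3. The E-box of Taf7l began 49 bases before the start site, that of Ddx4 29 bases and that of Mael 223 bases. These distances count from the RefSeq start, at chr10:88459587 for Sycp3 and chr1:166238744 for Mael. The stretches of these 2 genes printed below stop short of it, before another annotated start further upstream. Neither motif was found for Ooep, Khdc3, Nanos3 or Dazl. For Nanos3 and Khdc3, this and the CpG values below hold for the RefSeq start only, at chr8:84176552 and chr9:73102398. In GENCODE these genes begin further upstream, at 84185217 and 73101836, and the bases before those positions were not examined. The bases upstream of 4 of these genes are given 5′ to 3′ on the gene's strand, 3 with a higher level in the CX-5461 library (Hormad1, chr3:95559427-95559676, plus strand; Sycp3, chr10:88459337-88459568, plus strand; Taf7l, chrX:134476491-134476740, minus strand) and 1 with a lower level (Mael, chr1:166238748-166238994, minus strand), with E-boxes and E2F motifs in capitals.
Hormad1: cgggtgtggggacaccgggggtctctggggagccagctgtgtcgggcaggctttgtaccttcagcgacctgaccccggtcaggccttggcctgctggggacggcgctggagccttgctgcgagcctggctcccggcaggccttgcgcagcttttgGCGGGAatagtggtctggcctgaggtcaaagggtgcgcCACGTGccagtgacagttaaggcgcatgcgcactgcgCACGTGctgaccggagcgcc
Sycp3: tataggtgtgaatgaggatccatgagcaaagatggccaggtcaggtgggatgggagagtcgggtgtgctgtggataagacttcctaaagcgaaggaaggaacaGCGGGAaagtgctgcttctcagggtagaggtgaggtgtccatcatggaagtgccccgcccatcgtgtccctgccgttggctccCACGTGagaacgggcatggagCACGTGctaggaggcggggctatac
Taf7l: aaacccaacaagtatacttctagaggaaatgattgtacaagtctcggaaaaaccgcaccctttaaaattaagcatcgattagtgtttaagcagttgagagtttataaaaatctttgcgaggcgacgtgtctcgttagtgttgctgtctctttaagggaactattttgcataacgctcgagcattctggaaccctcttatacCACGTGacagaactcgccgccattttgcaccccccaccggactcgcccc
Mael: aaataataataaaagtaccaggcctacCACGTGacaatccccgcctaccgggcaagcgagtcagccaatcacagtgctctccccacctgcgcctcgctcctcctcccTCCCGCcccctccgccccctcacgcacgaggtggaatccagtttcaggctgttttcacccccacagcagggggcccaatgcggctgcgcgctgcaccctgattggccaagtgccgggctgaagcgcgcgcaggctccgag
A motif match is a description of the letters, and both a higher and a lower member carried an E-box. CpG content also differed between members: the observed over expected CpG ratio was 1.03 for Taf7l, 0.978 for Ddx4 and 0.713 for Hormad1, against 0.131 for Nanos3, 0 for Khdc3 and a median of 0.384 over all promoters, 0.792 over those of tested genes within 2-fold and 0.654 over those of tested genes at least 2-fold higher.

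The control table held 3838 barcodes and 49610287 UMIs, and that of CX-5461 held 4922 barcodes and 69841836 UMIs. After cells under 500 UMIs or above 20% mitochondrial UMIs were left out, a cluster led by fibroblast genes was set aside as feeder-like, with 216 control and 162 CX-5461 cells. This left 3551 and 4535 non-feeder cells. The non-feeder cells differed between the libraries in depth, with medians of 12643 and 14080 UMIs, and in mitochondrial share, with medians of 2.38% and 4.13%. Levels were therefore compared after every cell was thinned at random to 3100 UMIs, and values from all UMIs are given beside them. Fewer UMIs than this were found in 814 control and 21 CX-5461 cells, which were left out. In the 2737 and 4514 thinned cells the ES cell markers summed to 8262 and 8547 CPM (a gene's UMIs as a rate over all UMIs of those cells), oocyte markers summed to 7.43 and 5.79 CPM, nearly all of it Zp3, and Bmp15 was at 0 in both. Outside the feeder-like cells the libraries lay in almost separate clusters, which were left unnamed: 1541, 823 and 1169 control cells in 3 of them and 3011, 923 and 508 CX-5461 cells in 3 others. The clusters of 1169 control and 508 CX-5461 cells were shallow, with medians of 2388 and 5947 UMIs against 12947 or more in the others. Their median mitochondrial shares were 11.9% and 15.65%, against at most 4.11% in the others. Levels by cluster therefore also differ in depth and mitochondrial share.

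Over the members, 4 of 9 were at least 2-fold higher in the CX-5461 library (Hormad1, Nanos3, Sycp3 and Taf7l), 2 were at least 2-fold lower (Ddx4 and Mael) and 3 lay in between (Ooep, Khdc3 and Dazl). Of the 11821 genes with at least 200 UMIs in both libraries together, 21.1% were at least 2-fold higher and 3.93% at least 2-fold lower, and since the members were chosen with this contrast known, nothing is read from the count. The median log2 ratio, from which likewise nothing is read for the members, was 0.88 over the 9 members and 0.35 over all genes tested. Most genes thus lay above 0 on this scale. When the libraries were scaled by TMM factors, which centre the bulk of the genes, only Hormad1 stayed at least 2-fold higher, and Dazl joined Ddx4 and Mael among those at least 2-fold lower. After this scaling, 1691 of the 11821 genes tested were at least 2-fold higher and 902 at least 2-fold lower. Of all called genes, 84.3% were higher before this scaling and 65.2% after it. Of the members, 7 of 9 reached 200 UMIs, and of these 4 were at least 2-fold higher and 0 at least 2-fold lower at equal depth. Ddx4 and Mael did not, and Taf7l did so through its 176 UMIs in the CX-5461 library. In all UMIs, Ooep also passed 2-fold, so that 5 members were higher, against 19.9% of genes tested. The 2 lower members, Ddx4 and Mael, were not among the genes tested, of which 3.58% were lower in all UMIs.

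**Figure D1:**
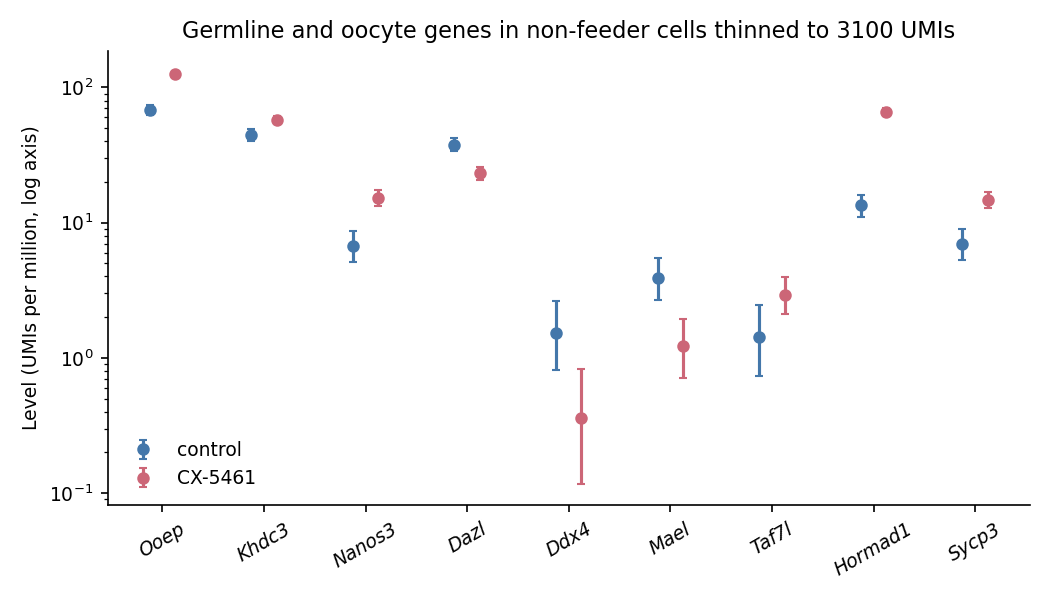
Level of each member in non-feeder cells thinned to 3100 UMIs, as CPM on a log axis, for the control library (blue) and the CX-5461 library (red). Bars are exact 95% counting intervals. The intervals of the 2 libraries overlap for Ddx4 and Taf7l and not for the other 7 genes.

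Hormad1, a protein of the meiotic chromosome axis, had the highest ratio of the 9. Its level was 13.4 CPM (11.1 to 16.1) in the control library and 65.8 (61.6 to 70.2) in the CX-5461 library, from 114 and 921 thinned UMIs. The ratio was 4.90 (4.03 to 6.004), and 5.001 (4.56 to 5.49) with all UMIs, which placed Hormad1 at rank 680 from the top of the 11821 genes tested. At equal depth 3.98% of control cells (3.28 to 4.78) held a UMI of Hormad1, as did 17.1% of the treated cells (15.99 to 18.2), and without thinning in 12.9% and 49.7%. The signal was spread over cells: 1318 of the 2255 CX-5461 cells with the transcript held a single UMI, and the highest cell held 9. In all UMIs it was at 9.48, 9.56 and 36.6 CPM in the 3 large control clusters and at 43.3, 88.3 and 155.4 in the 3 large CX-5461 clusters. The highest value in each library was in its shallow cluster with a high mitochondrial share.

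Sycp3, a component of the axial and lateral elements of the synaptonemal complex, stood at 6.95 CPM (5.29 to 8.97) in control and 14.8 (12.8 to 17.0) in CX-5461 cells. The ratio was 2.13 (1.59 to 2.89) thinned and 2.01 (1.77 to 2.296) with all UMIs. Cells with a UMI made up 2.16% and 4.298% at equal depth, and 8.03% and 15.02% without thinning. Sycp3 and Hormad1 thus moved in the same direction, but by different amounts.

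Taf7l, the germ-cell TFIID subunit, was at 1.41 CPM (0.731 to 2.47) in control and 2.93 (2.103 to 3.98) in CX-5461 cells, from only 12 and 41 thinned UMIs. The ratio was 2.07 (1.07 to 4.33), and 2.98 (2.11 to 4.29) with all 41 and 176 UMIs. In all UMIs the transcript was found in 1.01% of control and 2.95% of CX-5461 cells.

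Nanos3, needed for the survival of primordial germ cells, was at 6.72 CPM (5.09 to 8.70) in control and 15.2 (13.3 to 17.4) in CX-5461 cells. The ratio was 2.27 (1.68 to 3.09) thinned and 2.76 (2.41 to 3.17) with all UMIs. At equal depth 2.08% of control and 4.43% of CX-5461 cells held a UMI, and 6.84% and 18.2% did without thinning. This placed Nanos3 second among the members by the thinned ratio, with an interval that overlapped those of Sycp3 and Taf7l. In all UMIs Nanos3 was at 6.23, 6.05 and 3.49 CPM in the 3 large control clusters. In the large CX-5461 clusters it was at 19.6 (3011 cells), 7.60 (923 cells) and 7.13 (508 cells), so its higher level lay mainly in the largest.

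Ooep and Khdc3, the pair from the subcortical maternal complex, differed from each other. Ooep was at 67.9 CPM (62.5 to 73.7) in control and 125.3 (119.5 to 131.4) in CX-5461 cells, a ratio of 1.85 (1.68 to 2.03), and of 2.095 (2.01 to 2.19) with all UMIs. Its share of cells was 19.07% and 30.7% at equal depth and 46.9% and 73.1% without thinning. Khdc3 was at 44.7 (40.3 to 49.4) and 57.7 (53.8 to 61.9) CPM, a ratio of 1.29 (1.14 to 1.46), or 0.37 on the log2 scale, next to the 0.35 of the median gene. It was found in 12.1% and 14.7% of cells at equal depth, and in 34.1% and 43.3% without thinning. In all UMIs and by large cluster, Khdc3 was at 43.4, 40.6 and 68.6 CPM in control and at 62.2, 31.0 and 92.1 in CX-5461. The CX-5461 cluster of 923 cells was thus under all large control clusters for Khdc3. Its highest values, 68.6 and 92.1, were in the shallow clusters with a high mitochondrial share. Ooep was at 62.1, 64.8 and 76.5 CPM in control and at 147.8, 84.2 and 131.6 in CX-5461. Under TMM scaling the log2 ratio of Ooep was 0.54 and that of Khdc3 0.03. For Khdc3, the authors marked 86 control and 143 CX-5461 counts as shared with the overlapping gene Gm20509, beside 1997 and 3821 UMIs over all barcodes, and no counts of the other 8 members were marked as shared.

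Dazl, Ddx4 and Mael were lower in the CX-5461 library. Dazl was at 37.7 CPM (33.7 to 42.1) in control and 23.2 (20.8 to 25.9) in CX-5461 cells, a ratio of 0.616 (0.526 to 0.721). With all UMIs the ratio was 0.736 (0.686 to 0.790), and with another random draw of the thinning the log2 ratio was -0.40 in place of -0.70, which lies outside the counting interval. At equal depth 9.94% of control and 6.23% of CX-5461 cells held a UMI of Dazl, and 24.0% and 19.9% did without thinning. Dazl was therefore lower in each version, by an amount that the thinning changed.

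Mael, a component of the germ granule, was at 3.89 CPM (2.68 to 5.46) in control and 1.21 (0.708 to 1.95) in CX-5461 cells, from 33 and 17 thinned UMIs. The ratio was 0.312 (0.163 to 0.577), and 0.260 (0.187 to 0.358) with all 144 and 54 UMIs. Ddx4, the germ-cell RNA helicase, had only 13 and 5 thinned UMIs and a ratio of 0.233 (0.0651 to 0.697), which became 0.408 (0.273 to 0.603) with all 73 and 43 UMIs. Both transcripts were found in few cells, in 3.89% and 1.10% for Mael and in 1.97% and 0.926% for Ddx4 without thinning.

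**Figure D2:**
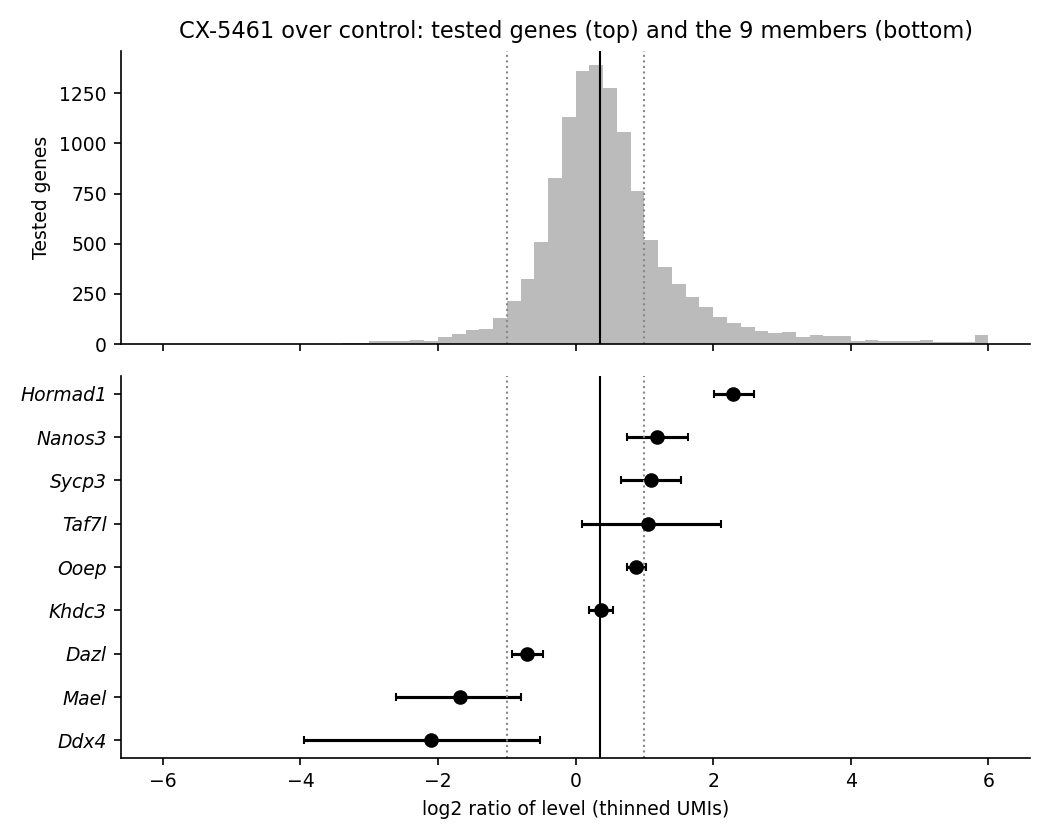
Log2 ratio of level, CX-5461 over control, in thinned non-feeder cells: the number of genes at each ratio among the 11821 tested (top, values beyond 6 gathered in the end bars) and the 9 members with exact 95% counting intervals (bottom). The solid line is the median of all genes tested, 0.35, and the dotted lines mark 2-fold. Hormad1 lies highest at 2.29 and Ddx4 lowest at -2.10.

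Feeder-like cells gave the background that free RNA or stray cells can leave in a droplet. Their median depth was 20618.5 UMIs in the control and 23608.5 in the CX-5461 library, above that of the non-feeder cells. After thinning, none of the members was found in the 206 control feeder-like cells, for which 3 counts, taken as the limit of a count of 0, give 1.46% of cells with a UMI at the thinned depth. Without thinning, Ooep was found in 4.63% and Khdc3 in 1.85% of the control feeder-like cells. In the 162 feeder-like cells of the CX-5461 library, Ooep was found in 5 cells or 3.09% (1.01 to 7.06), Khdc3 and Sycp3 in 1 each, and the other 6 in none. Unthinned, Hormad1 stood at 0.439 CPM (0.0532 to 1.59) in control and 2.29 (1.05 to 4.35) in CX-5461 feeder-like cells, far under its level in the non-feeder cells. Ddx4 and Mael were close to this background in the CX-5461 library: Ddx4 was at 0.663 CPM (0.480 to 0.894) in non-feeder and 0.255 (0.0065 to 1.42) in feeder-like cells, and Mael at 0.833 (0.626 to 1.09) against a count of 0, for which 3 counts give 0.764. For these 2 genes the CX-5461 level was not distinguishable from background at this depth.

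Levels also went with the mitochondrial share and the depth of the cells, whose part in the ratios was not tested. Hormad1 was at 9.10 and 9.95 CPM in control cells with 0 to 2% and 2 to 4% mitochondrial UMIs, and at 32.0 and 35.2 in those with 4 to 8% and 8 to 20%. In the CX-5461 library it was at 71.9, 56.4 and 48.4 CPM in the first 3 classes and at 154.3 in the last. Hormad1 was thus higher in the cells with the highest mitochondrial share in both libraries. Between libraries, its ratio was 5.67 (4.82 to 6.72) at 2 to 4%, 1.51 (1.13 to 2.08) at 4 to 8% and 4.39 (3.04 to 6.57) at 8 to 20%. The middle class held 194 control cells with a median of 5393 UMIs and 2003 CX-5461 cells with a median of 13912, and the class of 0 to 2%, with 43 CX-5461 cells, was not compared between libraries. By depth, the ratio of Hormad1 was between 3.61 and 6.32 in each of 4 classes.

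Ooep was higher in the CX-5461 library in every mitochondrial class compared, with ratios of 2.51, 1.49 and 1.99, and Sycp3 gave 2.08, 1.83 and 2.39, the middle one with an interval from 0.984 to 3.85. Khdc3 gave 1.55, 0.892 and 1.52, the middle one with an interval from 0.715 to 1.13. Nanos3 gave 2.66, 3.60 and 1.47, the last with an interval from 0.502 to 5.84, and Taf7l gave 2.47 at 2 to 4% and 0.511 (0.109 to 3.16) at 8 to 20%, the latter from 3 and 6 UMIs. Dazl gave 0.879 (0.792 to 0.976), 0.433 (0.332 to 0.576) and 0.803 (0.520 to 1.28). By depth, Dazl was lower in the CX-5461 library in cells with 3100 to 10000 UMIs (0.544, 0.423 to 0.699) and was not in those above 20000 UMIs (0.999, 0.869 to 1.15). Nanos3 had ratios of 1.76 (1.02 to 3.16) in the shallowest and 3.53 (2.82 to 4.44) in the deepest class. Mael was lower in the CX-5461 library in all 4 depth classes, with ratios from 0.183 to 0.536, the highest from 4 UMIs in each library with an interval that includes 1.

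**Figure D3:**
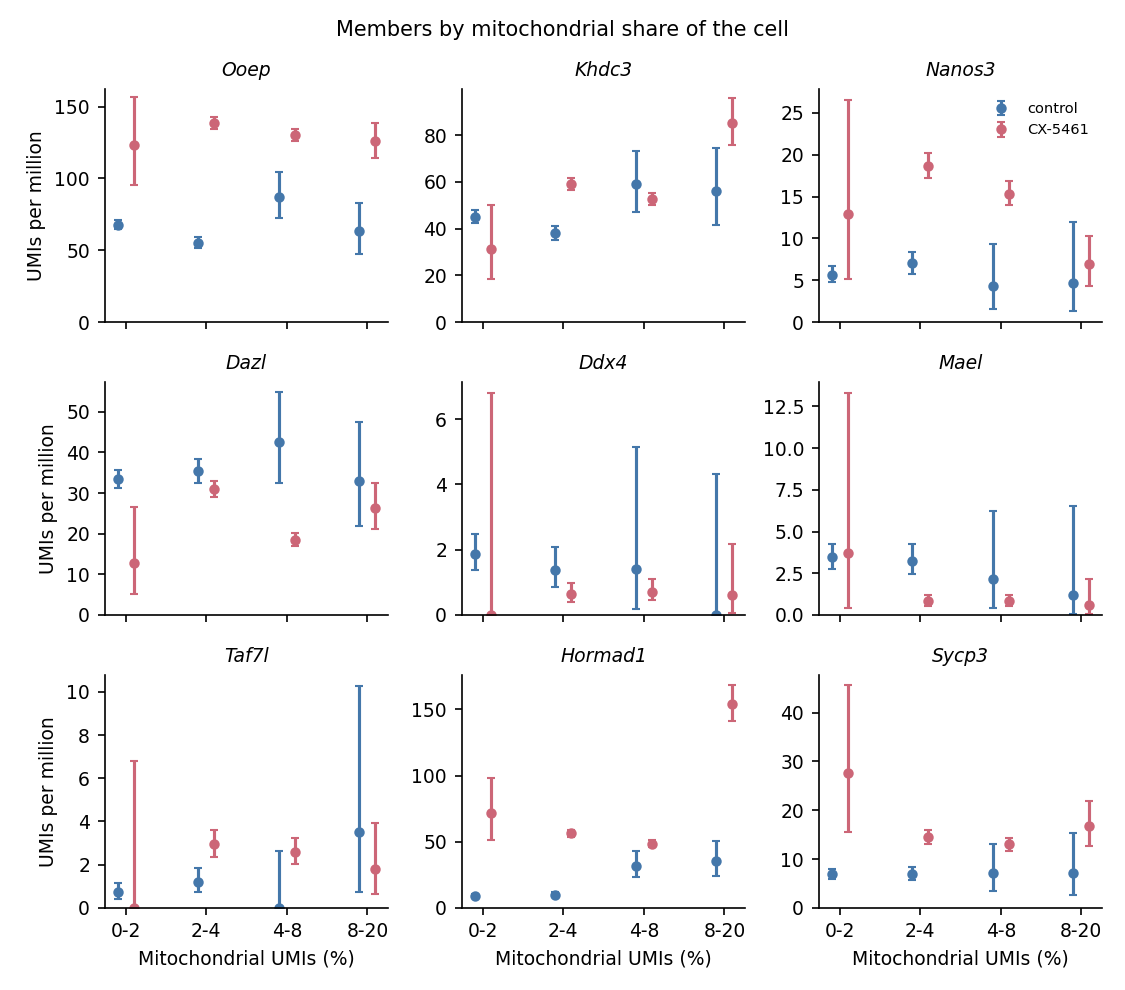
Level of each member in CPM (all UMIs) by the mitochondrial share of the cell, in non-feeder cells with at least 3100 UMIs, for the control library (blue) and the CX-5461 library (red), with exact 95% counting intervals. Hormad1 is highest in the class of 8 to 20% in both libraries, at 35.2 and 154.3.

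Cells with 5 or more UMIs of Zscan4a to Zscan4f were compared with the other non-feeder cells of the same library. The CX-5461 library held 51 such cells and the control library 9, and all UMIs were used. Dazl, lower in the CX-5461 library as a whole, was higher in its Zscan4 cells, at 94.8 CPM (73.5 to 120.4), a ratio of 3.91 (3.02 to 5.0) over the other cells. It was found in 20 of the 51 cells or 39.2% (25.8 to 53.9), and 1 cell held 15 of the 67 UMIs. Without the cell with the most Dazl UMIs on each side the log2 ratio was 1.62 in place of 1.97. In control, the ratio was 2.50 (1.14 to 4.76) from 9 UMIs, of which 5 came from 1 cell, and without the top cells the log2 ratio was 0.16 in place of 1.32. The value of Dazl in control cells therefore rested on 1 cell.

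Across the cutoff in the CX-5461 library, Dazl was at 24.2 CPM in the 4356 cells without Zscan4 UMIs, at 26.0 in 128 cells with 1 to 4, at 112.9 (35 cells) with 5 to 19 and at 52.2 (16 cells) with 20 or more. The cells just outside the cutoff were thus near the cells without Zscan4. Among CX-5461 cells with 3 or more UMIs of Dazl, 15 of 162 or 9.26% held a Zscan4 UMI, against 3.95% of all non-feeder cells. In control this was 1 of 151 or 0.662%, against 1.01%. Sycp3 had a ratio of 1.94 (1.16 to 3.04) in the CX-5461 library, with 7 of its 19 UMIs in 1 cell, and a log2 ratio of 0.30 in place of 0.95 without the top cells. Mael had a ratio of 7.26 (1.90 to 19.8) from 4 UMIs in 4 cells. Taf7l, at 2.65 (0.851 to 6.31) from 5 UMIs, and Ddx4, with 1 UMI, gave intervals that include 1.

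Ooep, Khdc3 and Nanos3 were lower in the Zscan4 cells of the CX-5461 library. Ooep was at 70.8 CPM there (52.5 to 93.3), a ratio of 0.526 (0.390 to 0.694), Khdc3 had a ratio of 0.615 (0.398 to 0.910), and Nanos3, with 2 UMIs, one of 0.170 (0.0206 to 0.616). With a cutoff of 1 Zscan4 UMI the log2 ratio of Nanos3 was -0.53 in place of -2.55 and so within 2-fold, and after thinning it was -1.28. The thinned ratio of Khdc3 was 0.875 (0.377 to 1.73), an interval that includes 1. Khdc3 was at 45.9 CPM in cells with 1 to 4 Zscan4 UMIs and at 46.4 in those with 5 to 19. In the 16 cells with 20 or more it was at 9.49, from 2 UMIs. Lower levels of these 3 genes were not particular to the Zscan4 cells. In the CX-5461 cluster of 923 cells, Ooep was at 84.2 CPM, Khdc3 at 31.0 and Nanos3 at 7.60. In that of 3011 cells they were at 147.8, 62.2 and 19.6, and in that of 508 cells at 131.6, 92.1 and 7.13. Markers of the 2C-like state summed to 11.6 CPM in the cluster of 923 cells. In the Zscan4 cells, Hormad1 had a ratio of 1.25 (0.927 to 1.64). Of the 6 members with at least 200 UMIs in the CX-5461 library, 1 was at least 2-fold higher (Dazl) and 1 at least 2-fold lower (Nanos3) in this comparison, where 4.22% of the 10704 genes with at least 200 UMIs were at least 2-fold higher and 10.8% lower. Mael, Taf7l and Ddx4 were under that minimum, and each was at least 2-fold higher on these few UMIs. In the control library, where 10.5% of the 8371 genes tested were at least 2-fold higher and 9.49% lower, the 9 Zscan4 cells held at most 4 UMIs of any member other than Dazl. Ooep was at 2 UMIs there, a ratio of 0.294 (0.0355 to 1.06).

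**Figure D4:**
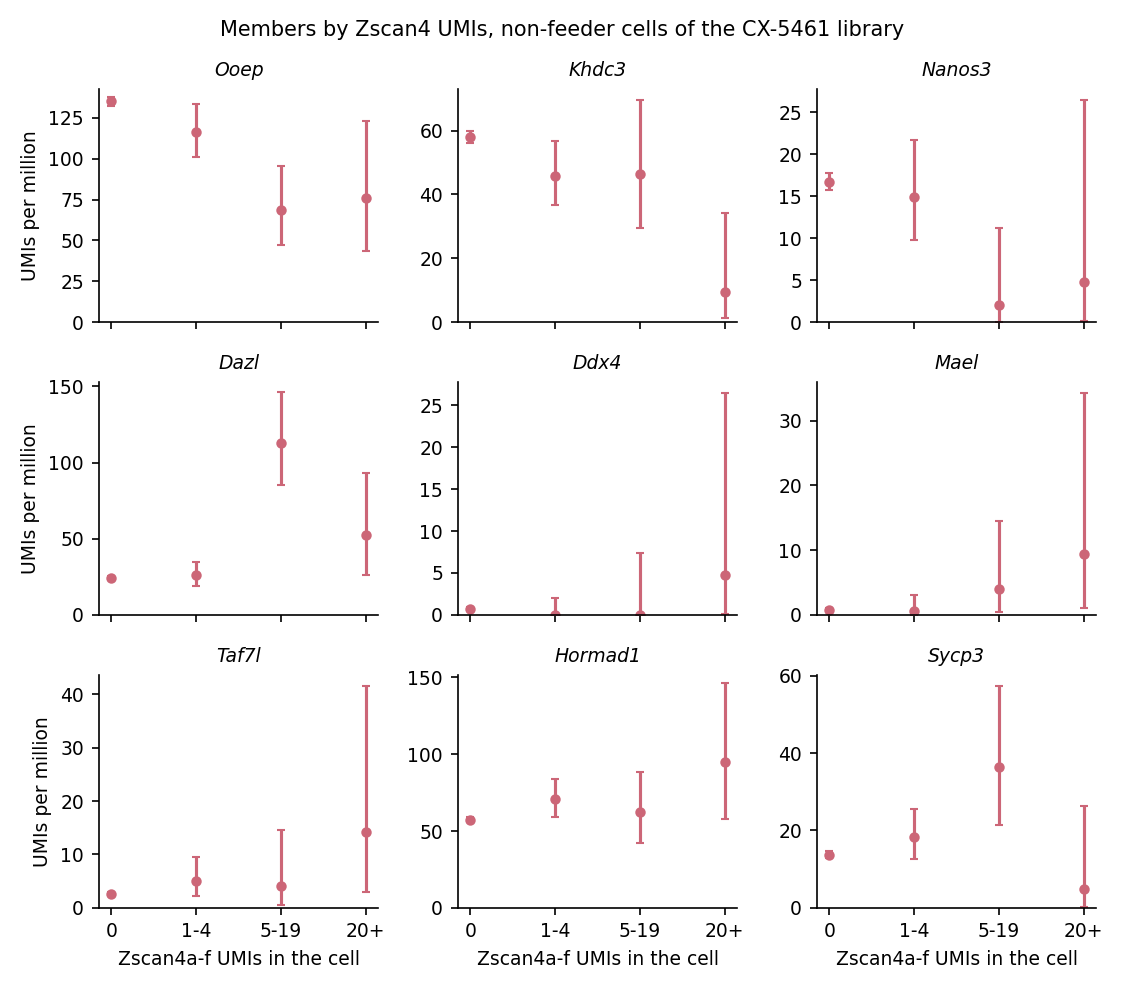
Level of each member in CPM (all UMIs) in non-feeder cells of the CX-5461 library by the number of Zscan4a to Zscan4f UMIs in the cell, with exact 95% counting intervals. The classes hold 4356, 128, 35 and 16 cells. Dazl reaches 112.9 at 5 to 19 UMIs, while Ooep is at 135.1 without Zscan4 UMIs and at 68.6 at 5 to 19.

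The Zscan4 cells made little difference to the comparison between libraries. In cells without any Zscan4 UMI the ratio was 4.79 for Hormad1, 2.28 for Nanos3, 2.09 for Sycp3, 2.03 for Taf7l, 1.86 for Ooep, 1.299 for Khdc3, 0.598 for Dazl, 0.302 for Mael and 0.240 for Ddx4.

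At equal depth, 42.6% of control and 58.6% of CX-5461 cells held a UMI of at least 1 member, and 8.18% and 17.0% held UMIs of at least 2. The most in 1 cell was 3 members in control and 5 in CX-5461. Ooep was found in 34.9% of the CX-5461 cells with a UMI of Khdc3 and in 29.98% of those without. Hormad1 was found in 20.1% of those with a UMI of Sycp3 and in 16.9% of those without. In control both pairs went the other way, at 17.5% and 19.3% for Ooep and at 3.39% and 3.996% for Hormad1. Other pairs did so within the CX-5461 library: Ooep was in 28.5% of cells with a UMI of Hormad1 and in 31.15% of those without. No shared expression is read from these pairs. Over the 4514 thinned CX-5461 cells, no gene reached a correlation of 0.2 with any of the 7 members that have 200 UMIs, and Ddx4 and Mael were not compared. The highest was 0.159, between Ooep and Dppa5a, and in counts this sparse a weak correlation is no finding.

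Among other genes of the germ line, 50 germ-cell genes, without the members, were looked up. They were listed as genes with methylated promoters, and the methylation itself was not measured here. Of these 23 were tested, 8 were at least 2-fold higher with CX-5461 and 1 was lower, with a median log2 ratio of 0.76 against 0.35 over all genes tested, of which 21.1% were higher. Nothing is read from this count or this median, since genes such as Dpep3, Tex101 and Rec8 reached the minimum of 200 UMIs only through the CX-5461 library. Dpep3, a testis dipeptidase, had 14 control and 3911 CX-5461 UMIs, a ratio of 194 (115 to 355) in all UMIs. Tex101, a surface protein of male germ cells, had a ratio of 9.97 (6.70 to 15.5) and Rec8, the meiotic cohesin subunit, one of 15.9 (12.3 to 20.8). Tuba3b, a testis tubulin with near-identical relatives among which reads may be divided, was at 0.436 (0.408 to 0.466).

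Of 16 primordial germ cell genes 12 were tested, with a median of 0.37. Dnd1 and Nanos1, both RNA-binding proteins, had ratios of 4.34 (3.21 to 5.97) and 3.98 (3.00 to 5.36), and the pluripotency factors Lin28a and Sall4 ratios of 0.0969 (0.0802 to 0.116) and 0.384 (0.364 to 0.405). Of 33 genes of the oocyte and the subcortical maternal complex only 4 were tested, with a median of 0.13, and Sohlh2, an early oocyte transcription factor, had a ratio of 2.49 (2.18 to 2.86). Tle6, a partner of Ooep in the maternal complex, was at a thinned ratio of 1.07 (0.672 to 1.74). Of 24 repressors of germline genes all were tested, with a median of -0.06. Dnmt3a, a DNA methyltransferase, had a thinned ratio of 2.58 (1.63 to 4.27) and 1.94 (1.62 to 2.35) in all UMIs, Yaf2, a Polycomb subunit, one of 2.16 (1.77 to 2.65) in all UMIs, and Cbx3, a heterochromatin protein, one of 0.3001 (0.288 to 0.313). Yaf2 and Cbx3 are also known subunits of the Polycomb complex named above. Among its other members, Mga had a thinned ratio of 1.34 (1.15 to 1.58), Max one of 1.16 (1.03 to 1.32) and E2f6 one of 0.623 (0.444 to 0.877). Further subunits on the list were lower: Pcgf6 at 0.663 (0.523 to 0.841), Rnf2 at 0.689 (0.567 to 0.839) and Rybp at 0.653 (0.527 to 0.811). Wdr5 was at 0.541 (0.490 to 0.597) and Hdac2 at 0.814 (0.713 to 0.930). L3mbtl2 (1.04, 0.890 to 1.225), Ring1 (1.34, 0.958 to 1.898) and Hdac1 (1.006, 0.856 to 1.18) had intervals that include 1.

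**Figure D5:**
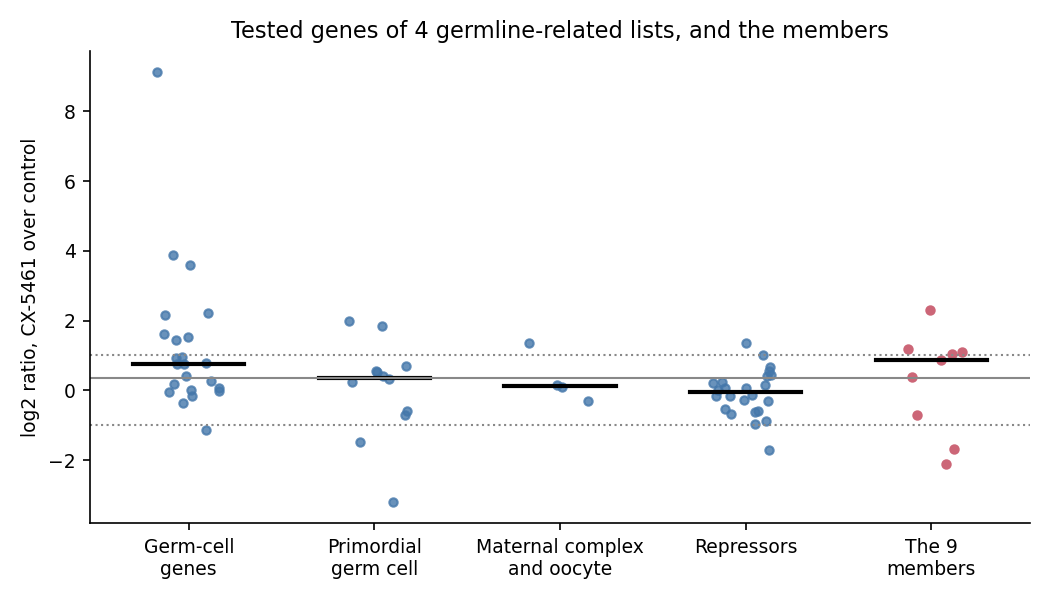
Log2 ratio of level, CX-5461 over control, in thinned cells for the tested genes of 4 germline-related lists (blue) and for all 9 members (red). Each point is a gene, black bars are medians, the grey line is the median of all genes tested, 0.35, and dotted lines mark 2-fold. The medians run from -0.06 for the repressors to 0.76 for the germ-cell genes and 0.88 for the members.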

How the data were processed

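The authors deposited 1 table of raw UMI counts per condition, per gene and barcode. By the methods they were made from 10x Genomics libraries, and the submitters' processing notes name Seurat 2.3.4 and the build mm10. Of 54146 gene identifiers, 54079 matched GENCODE symbols. Kept cells had 500 or more UMIs and a mitochondrial share of 0.2 or less. With scanpy 1.11.5, cells of both libraries were clustered (log-normalized to 10000 UMIs, 2000 variable genes, 16 principal components, 15 neighbours, Leiden resolution 0.5), and the cluster with at least 3 fibroblast markers among its 50 leading genes was set aside. A cluster of 9 cells with fibroblast transcripts but fewer such markers stayed in. Scrublet called 1 and 4 cells, too few to be useful, so no doublets were removed. Cells were thinned to 3100 UMIs, the 10th percentile rounded down.

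Levels are summed UMIs over the total of the cells (CPM). Intervals are exact at 95%: by the Poisson for levels, by Clopper-Pearson for shares and by the conditional binomial for ratios. Where a library had no count of a gene, 3 counts stood in for it. With 1 library per condition, p-values were not computed. A gene was counted as higher or lower at a ratio of 2 or 0.5, among genes with 200 UMIs. The counts over the 9 members between libraries also include Ddx4 and Mael, which had fewer. Motifs were counted in RefSeq promoters, which covered all 9 members.

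The members, the gene lists and the comparisons were chosen with earlier results of these data known. All 9 members are named, with up to 3 higher and 3 lower genes of each other list, largest first, and any gene correlated at 0.2 or more with a member. Zp3, Bmp15, Tle6 and the subunits of the Polycomb complex other than Yaf2 and Cbx3 were named outside this rule after their values were seen. Alternatives covered thinning, scaling (edgeR 4.0.16), cell filters, Zscan4 cutoffs and single cells.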

Additional observations from a re-analysis of the deposited data

How the results depend on the processing

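The direction of each of the 9 members between libraries was the same under all 13 alternatives. Scaling by TMM factors or by the median of ratios lowered the log2 ratios by 0.34 and left 1 member at least 2-fold higher under either. It lowered the genes tested at least 2-fold higher from 2494 to 1691 and 1696. It raised those at least 2-fold lower from 465 to 902 and 901. With no minimum number of UMIs per gene, 4878 genes were at least 2-fold higher and 4058 lower. In 106 of 117 comparisons the log2 ratio of a member stayed within its counting interval. With at least 1 Zscan4a-f UMI as the cutoff, the direction in Zscan4 cells turned in control for Ooep (0.11), Dazl (-0.21), Khdc3 (0.46), Hormad1 (0.02) and Sycp3 (-0.83), and for Ddx4 in CX-5461 (-0.76). Dazl in CX-5461 stayed higher with cutoffs of 1 and of 20 UMIs (0.91 and 1.07), while Sycp3 turned at 20 UMIs (-1.57, from 1 UMI of Sycp3 in 16 cells). Removing feeder-like cells by their share of fibroblast UMIs (above 0.3%) took out 213 and 161 cells, with 6 and 16 cells between 0.2 and 0.5%. Hormad1 in control turned at 20 UMIs as well (1.58). Members with no UMI in the Zscan4 cells gave no ratio. No paired analysis was possible because the tables carry no sample of origin, and for the same reason no replicate could be left out. Counts limit Ddx4, Mael and Taf7l most.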
